A study of Mus musculus with 9 samples.

Results

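The genes described here are Igfbp2, Igfbp3, Igfbp4, Igfbp5, Igfbp6 and Igfbp7, which encode insulin-like growth factor (IGF) binding proteins, and Polr2b, whose 3′ end faces that of Igfbp7. They are 7 of the 55302 gene symbols in the tables and were found by their symbols. Polr2b was chosen by its very high level in these libraries and its place over Igfbp7, so its height among all genes and over Igfbp7 is given as a description. Tests were run on differences between DOX and PBS, on how values vary together across libraries and on single libraries far from their group. None of these chose it. The libraries were bulk RNA-seq of fibroblasts sorted as CD45-, EpCAM- and PDGFRa+ from mouse lungs at an early stage of metastasis, with 4 PBS mice as controls and 5 doxorubicin (DOX) mice. The labels write both saline and Pbs for the control. According to the methods, DOX mice had 2 injections of 5 mg/kg and lungs were taken 24 h after the last of them, the gate was also CD31-, and metastases arose after removal of an implanted mammary tumor. The labels do not say which mouse strain or tumor line these libraries come from, nor the age of the mice, and the sort by a surface marker may hold more than 1 kind of fibroblast. DOX damages DNA through topoisomerase and DNA intercalation, and the comparison asks what systemic treatment does to the transcripts of lung fibroblasts.

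IGF-binding proteins are secreted proteins that hold IGF1 and IGF2 with high affinity, carry them in blood and tissue, and limit or prolong their access to the IGF1 receptor. Proteases such as those of the pappalysin family cut several of them and free the ligand. Igfbp7 is a more distant member with weak affinity for IGFs, known as a matrix-associated protein of vessels and of senescent cells. Polr2b encodes the second largest subunit of RNA polymerase II, the enzyme that transcribes protein-coding genes.

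Polr2b lies on the plus strand of chromosome 5 (chr5:77310147-77349324, mm10) and Igfbp7 on the minus strand (chr5:77349240-77408041, mm10), so that they are transcribed toward each other. In the GENCODE annotation of mm10 their last exons, exon 25 of Polr2b and exon 5 of Igfbp7, share 85 bases, which hold no coding bases of either gene, and the RefSeq gene table gives a shared stretch of 89 bases. MARS-seq counts the 3′ ends of transcripts, so the ends of both genes are shown here, each read 5′ to 3′ along its own transcript, with the polyadenylation signal in capitals.
Igfbp7 (chr5:77349248-77349277, minus strand): ttaaacaaaacaAATAAAattcttatcaca
Polr2b (chr5:77349292-77349321, plus strand): ttttctgtaaatAATAAAtttttgtagata
Both windows lie inside the shared exon bases. The signal AATAAA was searched on the transcript's own strand in the last 50 bases, where it was found in 6 of the 7 genes described here. Igfbp4 had the letters of the variant ATTAAA instead. The search matched letters only, and whether a match acts as a signal was not tested. Over 21951 protein-coding genes, 59.1% held AATAAA and 71.9% held either form. The 85 shared bases are the same positions on both strands, so those of 1 transcript are by definition the reverse complement of the other. A read that lies within them can be placed only by its strand.

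**Figure D1:**
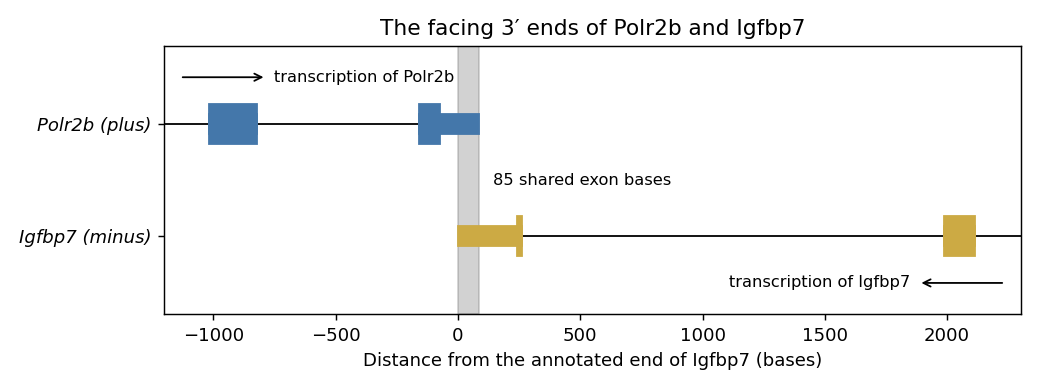
The facing ends of Polr2b (blue, plus strand) and Igfbp7 (yellow, minus strand), with exons as boxes (tall where coding) against the distance in bases from the annotated end of Igfbp7. The grey band marks the 85 exon bases that both genes share, which lie in the untranslated part of both.

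The other binding protein genes have no such overlap. Igfbp2 (chromosome 1, 72824503 to 72852474, plus strand) and Igfbp5 (chromosome 1, 72857932 to 72874884, minus strand) also face each other, but their ends are 5457 bases apart. Igfbp3 (chromosome 11, 7206086 to 7213923, minus strand) ends 3539 bases from the end of Igfbp1, a binding protein mainly of liver, which was at 0 in all 9 libraries. Igfbp4 (chromosome 11, 99041244 to 99054392, plus strand) ends 11285 bases from Tns4, which was also at 0, and Igfbp6 (chromosome 15, 102144362 to 102149511, plus strand) has no gene facing it within 20 kb.

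The values are read counts scaled by the authors with 1 size factor per library. Libraries held 497637 to 734114 reads in PBS and 432322 to 1285816 in DOX, so that 3 reads, the limit that a count of 0 allows, came to 1.54 to 5.81 normalised counts (counting error only). Summed collagen and other fibroblast markers were 2458 to 3480 in 8 libraries and 1585 in PBS 4, while Pdgfra, the gene of the sorting marker, was only 0.810 to 11.99. PBS 4 also stood apart by its granulocyte markers, which summed to 1095 against 0 to 26.6 elsewhere, and by its pan-immune (255 against 3.71 to 31.2), epithelial (483 against 15.8 to 179) and endothelial markers (193 against 64.9 to 152). A ribosomal RNA gene took 35.3% of the values in DOX 2 and 5.74 to 16.8% elsewhere. Some markers also differed between the groups. Lymphocyte markers summed to 24.1 to 39.4 in DOX and 6.33 to 20.2 in PBS. Epithelial markers summed to 44.5 to 179 in DOX and 15.8 to 36.6 in PBS 1 to 3. Summed fibroblast markers overlapped, at 2458 to 3124 in DOX and 3119 to 3480 in PBS 1 to 3, with PBS 4 lowest. Col1a1, the largest part of this sum, was lower in every DOX library than in PBS 1 to 3, and lowest in PBS 4. Gsn had a higher mean in DOX, while the values of Pdpn, Dpt, Dcn and Mfap4 overlapped. Whether fibroblast content differed between the groups was not tested. Results are also given without PBS 4 where it matters, and the part of other cell types in them was not tested further.

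The levels themselves need a caution. Genes with symbols of cytosolic ribosomal proteins were low in these tables. These 85 symbols, chosen after the values were seen, had means of 0 to 191 with a median of 13.7. Eef1a1, the translation elongation factor gene, had a mean of 16.8. Not every widely used gene was low: Actb, the beta-actin gene, had means of 21266 in PBS and 22564 in DOX. MARS-seq keeps the strand of a transcript, but the strand setting used when reads were counted is not given in the sources used here. For all genes described here the value is therefore what the tables list under the symbol, and whether these reads came from the gene's own strand was not tested.

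The 6 binding protein genes were listed at low to moderate values, together 0.0372 to 0.0756% of all reads. Igfbp4 led them with a mean of 198 normalised counts over the 9 libraries, followed by Igfbp7 (93.1), Igfbp6 (53.1), Igfbp5 (9.01), Igfbp3 (7.68) and Igfbp2 (1.41). Igfbp4 was above Igfbp7 in 8 of 9 libraries, and Igfbp7 above Igfbp6 in 9 of 9, although the ranges of these neighbours overlapped. Igfbp6 and Igfbp5 were the only neighbours whose ranges were apart (at least 27.97 against at most 18.4), while Igfbp5 exceeded Igfbp3 in 6 libraries and Igfbp3 exceeded Igfbp2 in 7. Igfbp4 made up 35.5 to 69.7% of the reads of the 6 genes, Igfbp7 16.5 to 39.9% and Igfbp6 9.82 to 19.8%. Per kb of exon the order changed, with Igfbp7 first (mean 77.0 normalised counts per kb), Igfbp6 (47.8) and Igfbp4 (44.9) behind it, and Igfbp3 (2.45), Igfbp5 (1.50) and Igfbp2 (0.765) far lower. A 3′ tag method gives reads that do not scale with transcript length, so the order per kb is only shown beside the order of the counts.

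**Figure D2:**
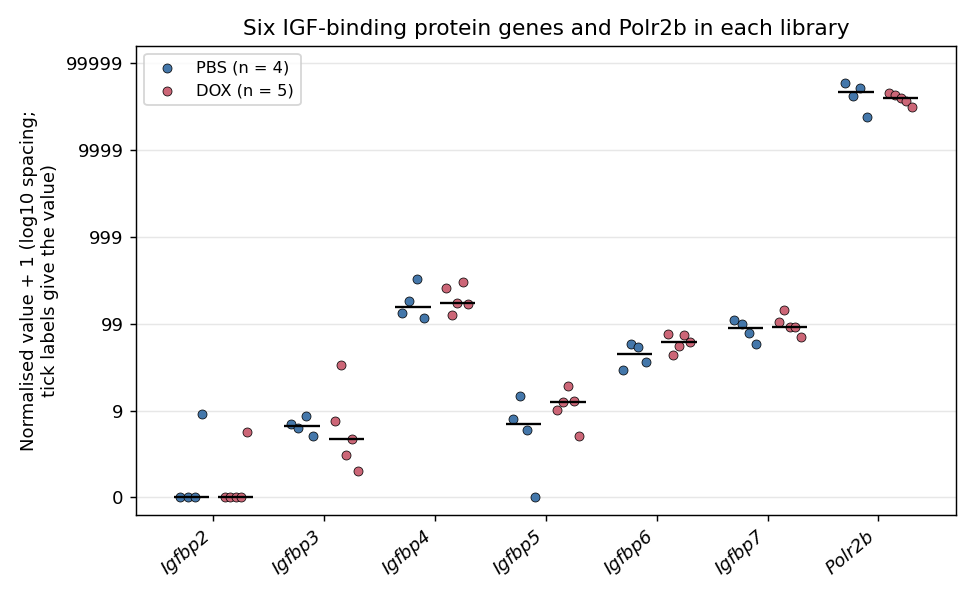
Normalised value plus 1 on a log10 axis for the 6 IGF-binding protein genes and Polr2b, with 1 point per mouse (blue PBS, red DOX) and the median of the log values as a bar. PBS and DOX points overlap for all 7 genes, and Polr2b lies between 23761 and 59693 in all libraries, far above the 6 binding protein genes.

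DOX and PBS fibroblasts were not told apart by any of the 7 genes. Of these, 5 passed the filter on low values (10 or more in at least 4 libraries), and none was called by limma with Benjamini-Hochberg adjustment over the 2604 genes tested (adjusted p 0.825 to 0.977), nor had any an unadjusted p under 0.05. For no member did the DOX and PBS values separate. Over all genes tested 0% were called, 6.22% had an unadjusted p under 0.05 and 2.65% had groups that did not overlap. In bulk samples, fewer cells of a type and less RNA per cell cannot be told apart.

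Igfbp4, a soluble binding protein that mostly restrains IGF1 and is cut by PAPP-A, was at 133, 182, 331 and 117 normalised counts in PBS 1 to 4. In DOX 1 to 5 it was at 255, 126, 172, 304 and 168. Its highest value was in PBS 3 and its lowest in PBS 4, with the DOX mice in between. The means were 190 ± 97.5 (SD, n = 4) and 205 ± 72.7 (SD, n = 5), a log2 fold change on the log2(value + 1) scale of 0.16 (SE 0.34, 95% interval -0.57 to 0.88, limma adjusted p = 0.977). Without PBS 4 the log2 fold change was -0.04.

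Igfbp6, which prefers IGF2 over IGF1, was at 27.97, 57.0, 53.0 and 35.6 in PBS 1 to 4 and at 74.2, 42.6, 54.1, 72.5 and 61.0 in DOX 1 to 5. The 3 highest values were DOX mice and the 2 lowest PBS mice, but DOX 2 and DOX 3 lay within the PBS range. The means were 43.4 ± 13.9 (SD, n = 4) and 60.9 ± 13.2 (SD, n = 5). The log2 fold change of 0.51 (SE 0.35, 95% interval -0.24 to 1.25) kept its direction when any library was left out, at 0.32 to 0.65, yet did not pass the test (limma adjusted p = 0.825).

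Igfbp5, a matrix-bound binding protein of mesenchymal cells, was at 6.99, 13.7, 5.05 and 0 in PBS 1 to 4 and at 9.28, 11.6, 18.4, 11.95 and 4.10 in DOX 1 to 5. These values rest on 0 to 18 reads per library, and the groups overlap. The means were 6.44 ± 5.68 (SD, n = 4) and 11.1 ± 5.16 (SD, n = 5). The log2 fold change was 1.10 (SE 0.90, 95% interval -0.82 to 3.02, limma adjusted p = 0.862), and it was 0.31 without PBS 4, the only library at 0.

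Igfbp7 was at 111, 97.1, 78.3 and 56.7 in PBS 1 to 4 and at 104, 141, 89.9, 90.4 and 69.2 in DOX 1 to 5, from 62 to 135 reads per library. DOX 2 was highest and PBS 4 lowest. The means were 85.7 ± 23.5 (SD, n = 4) and 98.9 ± 26.7 (SD, n = 5), a log2 fold change of 0.21 (SE 0.31, 95% interval -0.45 to 0.87, limma adjusted p = 0.948). It was 0.03 without PBS 4 and -0.11 without both PBS 4 and DOX 2. Igfbp7 is also known from endothelium. Endothelial markers summed to 193 in PBS 4 and 64.9 to 152 elsewhere, and their part in the Igfbp7 values was not tested.

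Igfbp3, the main carrier of IGFs in serum, and Igfbp2, a binding protein also made by epithelium, were too low to pass the filter. Igfbp3 was at 5.99, 5.28, 7.57 and 4.05 in PBS 1 to 4 and at 6.50, 32.9, 2.04, 3.73 and 1.02 in DOX 1 to 5, where the high value of DOX 2 stands for 17 reads. Igfbp2 had reads in only 2 libraries, PBS 4 (8.10, from 10 reads) and DOX 5 (4.61, from 9 reads). When all 17428 genes above 0 were tested without the filter, the log2 fold change was -0.15 for Igfbp3 (SE 0.78, limma adjusted p = 0.963) and -0.30 for Igfbp2 (SE 0.77, limma adjusted p = 0.907). Epithelial markers were highest in PBS 4, and the part of epithelial RNA in the Igfbp2 value was not tested.

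**Figure D3:**
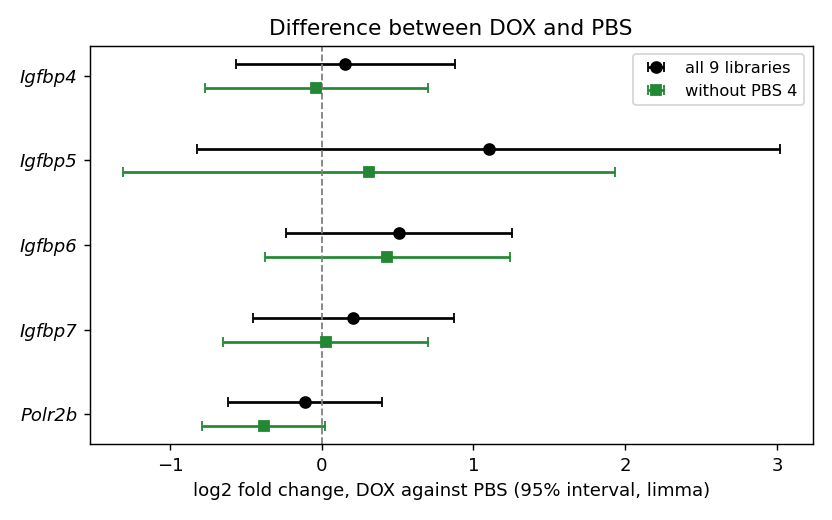
The log2 fold change of DOX against PBS with its 95% interval (limma, log2(value + 1) scale) for the 5 genes that passed the filter, with all 9 libraries (black circles) and without PBS 4 (green squares). All intervals include 0, and that of Polr2b without PBS 4 reaches from -0.79 to 0.02.

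Polr2b was at 59693, 42387, 51844 and 23761 normalised counts in PBS 1 to 4 and at 45532, 42741, 39747, 37154 and 31285 in DOX 1 to 5. The PBS mice held both the highest and the lowest value, and the DOX mice lay between them. Polr2b took 9.46% of all reads in PBS 1 (Wilson 95% interval 9.39 to 9.53%) and 3.99% in PBS 4 (3.95 to 4.04%), intervals that cover the counting of reads only, and it ranked 1 to 4 among all genes in every library. The means were 44421 ± 15484 (SD, n = 4) and 39292 ± 5471 (SD, n = 5), a log2 fold change of -0.11 (SE 0.24, 95% interval -0.62 to 0.40, limma adjusted p = 0.977). Without PBS 4, in which immune and epithelial markers were highest and fibroblast markers lowest, it was -0.38 (SE 0.19, limma adjusted p = 0.645), and without PBS 1 it was 0.06.

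The other RNA polymerase II subunits did not share this level. The 12 subunits form 1 complex, but the 11 others summed to only 184 to 371 normalised counts per library, and Polr2b was 64.0 to 281 times that sum. Polr2c was the next highest at 116 to 297, and the catalytic subunit gene Polr2a was at 12.3 to 46.4. Of the 11, 8 had a mean under 10 and Polr2d was listed at 0 in every library. Polr2a averaged 33.8 ± 13.6 across PBS mice (SD, n = 4) against 22.3 ± 8.94 across DOX mice (SD, n = 5), with a log2 fold change of -0.56 (limma adjusted p = 0.865). Polr2c (log2 fold change -0.09, limma adjusted p = 0.980) and Polr2l (1.40, limma adjusted p = 0.778) did not pass the test either.

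**Figure D4:**
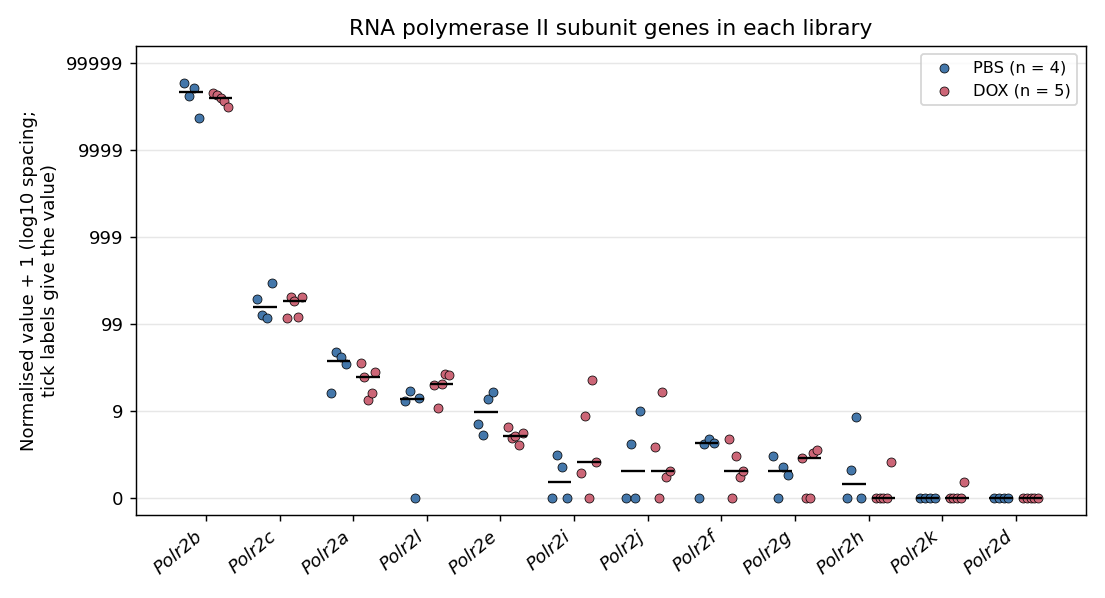
Normalised value plus 1 on a log10 axis for the 12 RNA polymerase II subunit genes, ordered by mean, with 1 point per mouse (blue PBS, red DOX) and the median of the log values as a bar. Polr2b lies at 23761 or more in each library, while no value of the other 11 exceeds 297.

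A gap as wide as that between Polr2b and Igfbp7 was found in few other pairs of genes with facing ends. The annotation held 818 pairs of protein-coding genes that face each other and share exon bases, 607 of them with a gene at a mean of 10 or more. Polr2b and Igfbp7 were first by the level of the higher gene, the next being at 20171, and they ranked 8 by the ratio of both means (each plus 1), which was 442 against a median of 10.4. The shared stretch of 85 bases was short beside the median of 416. In 54 pairs the ratio was 100 or more. Tlcd1, for instance, was at a mean of 7958 while Rpl23a, a ribosomal protein gene used by every cell, was at 2.27. Ccdc152 was at 16872 and Selenop, the gene of a secreted selenoprotein, at 28.8, and Ulk4 was at 1272 and Ctnnb1, the gene of beta-catenin, at 0.418. These 3 pairs were singled out after their values were seen. Among the polymerase subunits, Polr2c shares 953 exon bases with Dok4 (118 to 232), and Polr2j, at 0 to 15.3, shares 176 with Lrwd1 (386 to 606). Reads of Polr2b and of Igfbp7 cannot be told apart from these tables.

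Polr2b was 302.5 to 662 times Igfbp7 in each library. The ratio was 538, 436, 662 and 419 in PBS 1 to 4 and 438, 303, 442, 411 and 452 in DOX 1 to 5, with the lowest ratio in DOX 2. The mean log2 ratio was 8.96 ± 0.31 for the PBS mice (SD, n = 4) and 8.65 ± 0.24 for the DOX mice (SD, n = 5). The difference of -0.32 was about as large as the SD within PBS and did not pass the test (two-sided exact permutation test over 126 splits, p = 0.175, where the smallest possible p was 0.0159).

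Across the 9 libraries Polr2b and Igfbp7 were both lowest in PBS 4. On the log2(value + 1) scale Pearson's r was 0.695 (two-sided exact permutation p = 0.0385, adjusted p = 0.116 over 6 relations) and Spearman's rho was 0.667 (exact permutation p = 0.0589, adjusted p = 0.118). Without PBS 1 and PBS 4, the 2 libraries farthest from the median of Polr2b, r was 0.340 over 7 libraries (exact permutation p = 0.458), so the relation did not hold without them, over a narrower range of Polr2b. As deviations from the group means r was 0.778 (exact permutation within groups, p = 0.0163, adjusted p = 0.0979). For the other binding proteins r with Polr2b was -0.844 for Igfbp2 (adjusted exact permutation p = 0.0833), 0.614 for Igfbp5 (0.187), 0.397 for Igfbp3 (0.418), 0.314 for Igfbp4 (0.501) and -0.10 for Igfbp6 (0.800), so that none of the 6 relations passed the adjustment. The r of Igfbp2 rests on 10 reads in PBS 4 and 9 in DOX 5, with all other libraries at 0. With so many values at 0, its unadjusted exact permutation p of 0.0139 was the smallest possible. Its test therefore had little room to pass the adjustment. Spearman's rho gave another order, with 0.733 for Igfbp3 (adjusted exact permutation p = 0.0934), -0.730 for Igfbp2 (0.0934), 0.300 for Igfbp4 (0.655), -0.217 for Igfbp6 (0.697) and 0.133 for Igfbp5 (0.744). By r with Polr2b, Igfbp7 ranked 103 of the 2603 other genes tested. Summed marker lists gave r with Polr2b of similar size. It was 0.69 for fibroblast, -0.83 for pan-immune, -0.82 for epithelial and -0.74 for endothelial markers. The other marker lists gave -0.69 to 0.22, the largest in size being red blood cell (-0.69) and granulocyte markers (-0.68). These values are descriptions, and the part of cell content in the relation of Polr2b with Igfbp7 was not tested.

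**Figure D5:**
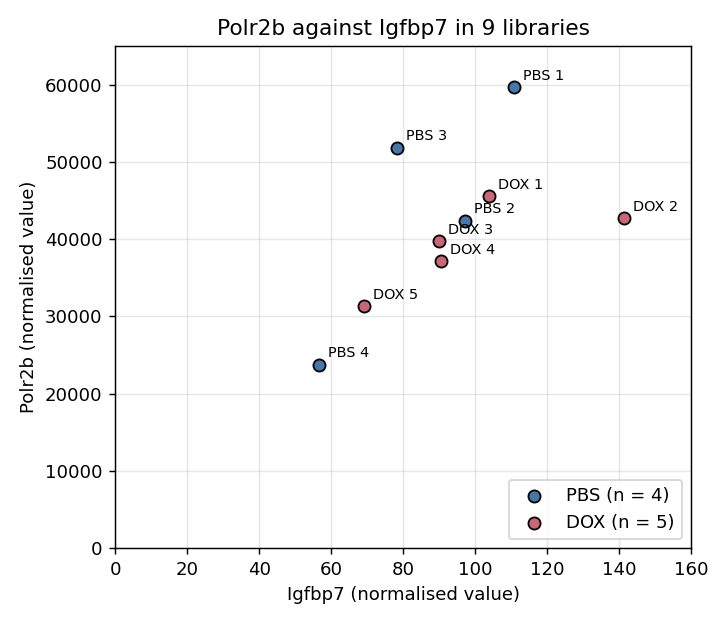
Polr2b against Igfbp7, both as normalised values on linear axes that start at 0, with 1 point per library (blue PBS, red DOX). PBS 4 is lowest on both axes, PBS 1 is highest for Polr2b (59693) and DOX 2 is highest for Igfbp7 (141).

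The genes whose values over the 9 libraries were most like those of each member differed between members. For Polr2b they were Cebpd (r = 0.95), Plpp3 (0.92) and Lsm12 (0.91), and for Igfbp7 they were Cyp2u1 (0.91), Ubap2l (0.91) and Serpina3c (0.90). All of these 6 genes had their lowest value in PBS 4, as had both members. Igfbp4 was most like Pi16 (0.91), Rtbdn (0.90) and Noxo1 (0.88), Igfbp5 like Prcd (0.94), Tsc2 (0.91) and Dcn (0.91), and Igfbp6 like Smpd5 (0.86), Fth1 (0.86) and Sbno1 (0.85). A lowest value in PBS 4 was not particular to Polr2b, Igfbp7 and the genes most like them. Igfbp4, Igfbp5, Rtbdn, Noxo1, Prcd, Tsc2 and Dcn had it too. Igfbp6, Pi16, Smpd5, Fth1 and Sbno1 did not. The most alike genes were picked from 2604 genes, and their r values are descriptions over 9 libraries.

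The rest of the IGF pathway was sparsely covered, and no tested gene of it passed the test. Of 46 listed IGF-related genes other than the members, 11 passed the filter, of which 8 had higher mean log2 values in DOX and 3 lower ones, against 1287 higher and 1317 lower among all genes tested. None was called or had an unadjusted p under 0.05, and the lowest limma adjusted p was 0.858 (Itgb1). Among 5 ligands and receptors, 3 were tested, with 1 higher and 2 lower. The ligand gene Igf1 had means of 58.5 ± 26.04 in the PBS mice (SD, n = 4) against 54.1 ± 12.9 in the DOX mice (SD, n = 5). Igf2 was listed at 0 in every library, while Igf2r, the receptor that clears IGF2, was at 239 ± 135 (SD, n = 4) and 199 ± 41.1 (SD, n = 5). Igf1r, the signalling receptor, had means of 20.46 ± 9.47 (SD, n = 4) and 21.4 ± 18.1 (SD, n = 5), with DOX 2 (1.94) and DOX 4 (3.73) below the PBS range and DOX 3 (41.9) and DOX 5 (35.3) above it. The Igf1r value of DOX 2 stands for 1 read, and that of DOX 4 also for few reads.

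Of 8 partners and proteases of the binding proteins, only Stc2, a stanniocalcin that inhibits pappalysins, was tested (log2 fold change 0.35, limma adjusted p = 0.977). Pappa and Pappa2 did not exceed 3.00, and Igfals, the acid-labile subunit of the serum complex, was listed at 0. Of 16 signalling genes, Foxo3 (0.13, limma adjusted p = 0.977) and Tsc2 (0.19, limma adjusted p = 0.875) were tested. Tsc2 was at 2248 to 3323, and its exons share 693 bases with Pkd1 on the other strand, which was at 25.98 to 113. Of 12 genes of related proteins, Kazald1 (0.46, limma adjusted p = 0.961), Ccn1 (-0.08, 0.985) and Htra3 (0.30, 0.977) were tested. Of 5 surface proteins known to bind IGF-binding proteins, Lrp1 (0.38, limma adjusted p = 0.862) and Itgb1 (0.64, 0.858) were tested, and Cd93, a receptor for IGFBP7 on endothelium, was at 0 to 15.4.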

How the data were processed

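Fibroblasts of 4 PBS and 5 DOX mice, each labelled as a biological replicate, were sequenced by MARS-seq on an Illumina NovaSeq. The authors used STAR for alignment (mm10) and HTSeq for counts per RefSeq gene. The sources used here give no versions, no strand setting and no word on collapsing by molecular tags. The deposited signal is a read count divided by a library size factor. All values (100%) were whole reads at a tolerance of 0.0001 reads, so read counts were recovered, and the count test edgeR called 0 genes.

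Each table had 55421 lines, and 119 repeated symbols were summed. A gene needed 10 or more in 4 libraries, which 2604 met, and these were tested with limma 3.58.1 (mean-variance trend, R 4.3.3) on log2(value + 1), without block or covariate, at an adjusted p of 0.05. Single values were compared by exact permutation (SciPy 1.17.1). Recovered reads were tested with limma-voom, edgeR 4.0.16 and DESeq2 1.42.0. On simulated counts limma recovered 12.8% of 2-fold and 63.7% of 4-fold changes among 2639 genes tested, with 3 false calls. Positions and transcript ends came from GENCODE M21, in which 98.3% of the symbols above 0 were found.

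Members, lists and comparisons were chosen with earlier results of these data known. The text names the 7 members, up to 4 tested genes of lowest p per list, the 3 genes of highest r per tested member, their neighbours on the other strand within 20 kb and the polymerase subunits. Marker lists not described with the results were summed too, over smooth muscle and pericyte (99.3 to 215), mesothelial (0 to 7.47), monocyte and macrophage (205 to 302) and red blood cell genes (0 to 7.17, and 81.8 in PBS 4).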

Additional observations from a re-analysis of the deposited data

Results flagged for a closer look

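Dixon's test of the sample farthest from its group picked out 11 of the 57 groups of 4 or 5 libraries examined. For normally distributed values chance picks about 1 in 20, a rate that does not apply to counts near 0. A group with reads in only 1 library is always picked out, as for Igfbp2 in both groups and Polr2h and Polr2k in DOX. The 11 therefore cannot be read as more than chance gives. Among the members the values picked out were Igfbp2 in PBS 4 (8.10, the other PBS mice at 0), Igfbp2 in DOX 5 (4.61, the other DOX mice at 0), Igfbp3 in DOX 2 (32.9 against 1.02 to 6.50) and the log2 ratio of Polr2b to Igfbp7 in DOX 2 (8.23 against 8.67 to 8.80).

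Among the listed genes Stc2 was at 68.0 in DOX 4 (6.66 to 21.3 in the other DOX mice) and Kazald1 at 145 in DOX 5 (21.4 to 56.1). The polymerase subunits picked out were Polr2f at 0 in PBS 1, Polr2h at 7.57 in PBS 3 and at 1.54 in DOX 5, Polr2j at 15.3 in DOX 3 and Polr2k at 0.512 in DOX 5, all of them values of few reads.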

How the results depend on the processing

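The count of called genes was 0 in the main test and under 21 of 22 alternatives, edgeR, DESeq2, limma-voom and the replicate block included. Without the filter on low values 3 of 17428 genes were called, CT010467.1, Gm17300 and Gm20721, chosen here after their values were seen, and none was a member. At an unadjusted p under 0.05 the count was 162 in the main test, 148 with edgeR, 160 with limma-voom and 173 with DESeq2 over the 2604 filtered genes (added after seeing the data), and over 17428 unfiltered genes it was 459 with limma and 463 with DESeq2. The adjusted p of the tested members was 0.614 to 0.999 over all alternatives that gave one. A filter of 20 or more in at least 4 libraries left Igfbp5 untested. DESeq2 over the filtered genes gave no adjusted p for Igfbp5, Igfbp6 and Igfbp7. Directions turned for Igfbp3, tested only without the filter, with DESeq2 (0.61), Polr2b without PBS 1 (0.060), Igfbp4 without PBS 4 (-0.037) or DOX 4 (-0.0034), and Igfbp7 without PBS 4 and DOX 2 together (-0.11, chosen after seeing the data), and the cause was not tested. With 1 library left out, log2 fold changes were -0.04 to 0.46 for Igfbp4, 0.31 to 1.60 for Igfbp5, 0.32 to 0.65 for Igfbp6, 0.03 to 0.35 for Igfbp7 and -0.38 to 0.06 for Polr2b, and the difference in the log2 ratio of Polr2b to Igfbp7 was -0.41 to -0.19. Rescaling all libraries to the same total moved the median of all genes by -0.13 and Polr2b to -0.24.

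Deviations of same-numbered PBS and DOX libraries correlated weakly (0.0207 to 0.0665, 3 of 4 best with their own number), under the limit of 0.1 taken for pairing, and the labels name no shared litter or day, so the test had no block. With the replicate block, which leaves out DOX 5 for lack of a partner, the log2 fold changes were 0.21 for Igfbp4, 1.38 for Igfbp5, 0.50 for Igfbp6, 0.33 for Igfbp7 and -0.03 for Polr2b, with 161 genes at an unadjusted p under 0.05, and the paired difference in the log2 ratio was -0.36 (exact sign-flip p = 0.125, the smallest possible). Depth limits Igfbp2, Igfbp3 and Igfbp5 most, at 0 to 18 reads per library.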
